A study of Mus musculus with 3 samples.

Results

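The genes described here encode the growth factor IGF1, its receptor, 6 proteins of the IGF-binding family and the pappalysins, in cells of a mouse mesenchymal line. They were taken as every probe set (a group of array probes that reads 1 transcript region) whose single annotated symbol is Igf1, Igf1r, Igfbp2, Igfbp3, Igfbp4, Igfbp5, Igfbp6, Igfbp7, Pappa or Pappa2. This gave 10 of 18193 genes and 28 of 45101 probe sets. The family was selected on the log2 values of these same 3 arrays, because earlier results of them were known, so the differences between arrays are given as a description and no test was made. Each of 3 conditions was read on 1 Affymetrix array of the mouse genome. C3H10T1/2, a fibroblast-like line able to enter several mesenchymal lineages, was read without transduction, after retroviral transduction with the fluorescent protein Venus (Venus), and after transduction with Venus joined to the homeobox gene Mohawk (Venus-Mkx). The base medium held fetal bovine serum, penicillin and streptomycin. The transduced cells received a pMIGR retrovirus packaged in PLAT-E cells and were then kept in medium with puromycin, in which they differ from the untransduced cells. No array was replicated, so no value has an error. The study asked how Mkx overexpression alters gene expression in these cells, and took Venus cells as its control.

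IGF1 and IGF2 are secreted growth factors that act mainly through the tyrosine kinase receptor encoded by Igf1r. Most IGF outside cells is held by IGF-binding proteins, which keep it from the receptor or carry it to its surroundings, and some of these proteins also act on cells without IGF. The pappalysins are secreted metalloproteinases that cut certain binding proteins and so release the bound IGF, and the stanniocalcins inhibit them. In tendon, ligament and cartilage IGF1 is known as a stimulus of cell growth and matrix synthesis.

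Mkx itself was read by 1 probe set, and its log2 values were 6.88 (C3H10T1/2), 7.43 (Venus) and 2.71 (Venus-Mkx). The low last value goes against the label, and it is not known here whether the probe set reads the vector's Mkx sequence, so the third array is named by its label and every direction below rests on that label. The values were deposited as log2 values, and 24.6% of all probe sets hold an equal value on the 3 arrays. The floor used here was 4.34, the median of all values. No detection call was used, and a value below the floor was by choice treated as not told from background. A fold against such a value is given as a lower bound, with that value raised to the floor. These bounds depend on the floor chosen, and a higher floor would make them smaller. Of the mesenchymal markers, 8 of the 9 with a named probe set reached the floor, with Vim at 13.46, 13.47 and 13.03 in the order C3H10T1/2, Venus and Venus-Mkx. Thy1 and Col1a1 were called higher, the other 6 were neither, Pdgfra among them at 10.15, 9.84 and 9.14, Nt5e was below the floor, and the sums over the list were 89.0, 89.5 and 91.6. In bulk RNA, fewer cells that express a gene and less RNA per cell cannot be told apart.

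The binding-protein genes Igfbp2 and Igfbp3 were far higher on the array labelled Venus-Mkx than on both control arrays, Igfbp6 was 2.90-fold higher, and Igf1, Pappa and Pappa2 were lower. Each gene was given the values of its probe set of highest mean, and a gene was called higher or lower when it reached the floor on at least 1 array and differed at least 2-fold from both controls. All 10 genes reached the floor. By this rule 3 of 10 were called higher, against 6.82% of 11169 measured genes, and 3 of 10 were called lower, against 5.34%. Because the family was picked with these values in view, nothing is read from these shares. The median log2 difference of the 10 genes from Venus was −0.71, and that of all measured genes was 0. Over the 28 probe sets, 4 were at least 2-fold above both controls, 8 were at least 2-fold below both, and 3 held an equal value on all 3 arrays. Of the 8, 4 were probe sets of Igf1. No floor was applied to this count and the share over all probe sets was not computed, so nothing is read from it.

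**Figure D1:**
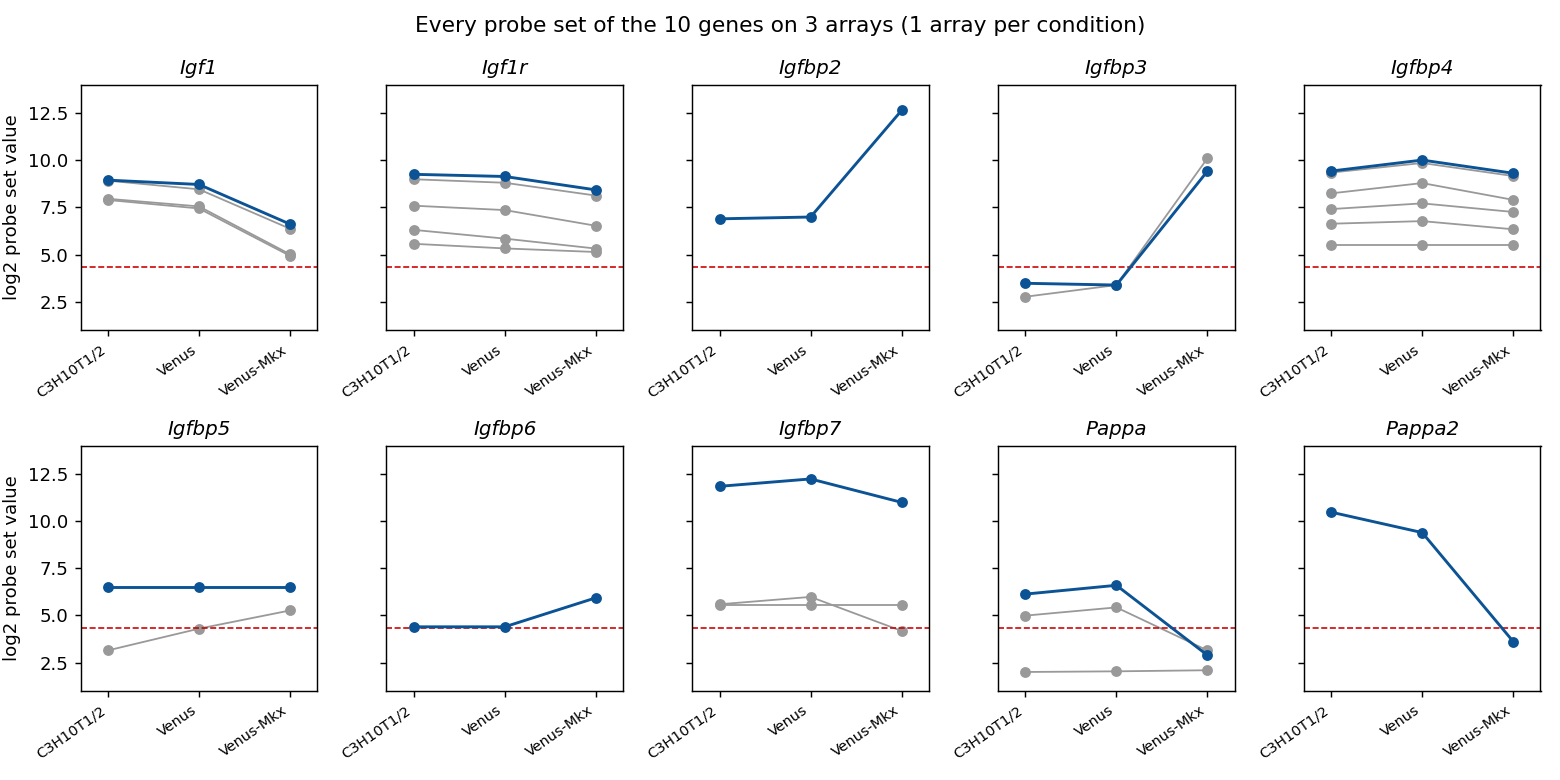
Log2 value of every probe set of the 10 genes in C3H10T1/2, Venus and Venus-Mkx, 1 array per condition, with lines joining the values of 1 probe set. The blue line is the probe set with the highest mean, grey lines are the others, and the dashed line is the floor of 4.34. Igfbp2 and Igfbp3 go up on the third array, Pappa2 goes below the floor there, and all 4 lines of Igf1 go down together.

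Igf1, which encodes the growth factor, had lower values on the array labelled Venus-Mkx with all 4 of its probe sets. For 1437401_at the log2 values were 8.95 and 8.72 in C3H10T1/2 and Venus, and 6.62 in Venus-Mkx. The other probe sets ran from 7.90 to 8.92 in C3H10T1/2, from 7.45 to 8.46 in Venus and from 4.94 to 6.37 in Venus-Mkx. Both controls were therefore high and close to each other, and every reading stayed above the floor. The log2 difference from Venus was −2.10 for 1437401_at, a 4.29-fold lower value, and between −2.09 and −2.54 for the others. From C3H10T1/2 it was −2.33, a 5.03-fold lower value, with −2.55 to −2.96 for the others. Venus differed from C3H10T1/2 by −0.23 to −0.46 on the log2 scale. The 4 probe sets have 4 different target sequences in the annotation.

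Igf1r, which encodes the receptor tyrosine kinase for both IGFs, was below both controls with each of 5 probe sets but was not called lower. The probe set 1452982_at had log2 values of 9.26 and 9.14 in C3H10T1/2 and Venus, and 8.43 in Venus-Mkx. Its log2 difference was −0.71 from Venus and −0.83 from C3H10T1/2. The other probe sets differed from Venus by −0.19 to −0.83 and from C3H10T1/2 by −0.43 to −1.06. The smallest difference, −0.19, belonged to 1446303_at, with values of 5.57, 5.33 and 5.14. Of the 5 probe sets, 4 share a target sequence with another, so they are not 5 separate readings.

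The binding-protein genes did not move together. They fell into 3 patterns: Igfbp2, Igfbp3 and Igfbp6 were called higher, Igfbp4 and Igfbp7 lay below both controls without being called, and Igfbp5 depended on the probe set. The promoter sequences below are shown for Igfbp2, Igfbp6 and Igfbp7, whose proteins belong to the same family, because the first pair was called higher and Igfbp7 was below both controls. Each is the 250 bases before the RefSeq start on the gene's own strand, build GRCm38.p6, with the matches to the GC box, GGGCGG, and to the core of the TATA box, which is TATAAA, on either strand, in capitals.
Igfbp2, chr1:72824230-72824479, plus strand: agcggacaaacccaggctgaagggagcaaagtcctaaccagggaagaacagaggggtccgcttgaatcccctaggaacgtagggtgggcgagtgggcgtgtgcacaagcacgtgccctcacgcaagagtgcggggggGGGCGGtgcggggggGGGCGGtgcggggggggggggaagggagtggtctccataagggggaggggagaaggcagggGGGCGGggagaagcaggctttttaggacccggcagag
Igfbp6, chr15:102143936-102144185, plus strand: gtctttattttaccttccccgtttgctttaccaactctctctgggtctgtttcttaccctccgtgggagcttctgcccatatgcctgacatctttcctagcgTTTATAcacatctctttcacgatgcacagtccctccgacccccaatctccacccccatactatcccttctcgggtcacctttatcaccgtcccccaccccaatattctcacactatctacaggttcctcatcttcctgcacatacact
Igfbp7, chr5:77408046-77408295, minus strand: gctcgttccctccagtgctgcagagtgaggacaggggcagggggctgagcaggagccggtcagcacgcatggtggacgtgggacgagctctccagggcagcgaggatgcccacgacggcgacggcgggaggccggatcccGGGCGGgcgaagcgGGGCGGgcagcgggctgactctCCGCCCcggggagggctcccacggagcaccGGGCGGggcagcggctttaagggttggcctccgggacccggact

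The windows of Igfbp2 and Igfbp7 were rich in G and C, with 67.2% and 74.0%, and held 3 and 4 GC boxes. The window of Igfbp6 had 49.6% G and C, no GC box and 1 match to the TATA box, 148 bases before the start on the opposite strand. Of 32851 windows of this length in the table, 32.7% held a GC box and 12.4% a TATA box. The sequence ACANNTGT, a site type of Iroquois-class homeodomain proteins, to which Mohawk is related, was in 6.31% of all windows and in no window of the 9 members that had one. These are matches of letters only. Igfbp2 has a second start in the table, whose window held none of these motifs. The windows of Igf1, Igfbp3, Igfbp4 and Pappa2 lie inside the annotated span of their gene and are not printed. They had 52.8%, 73.2%, 69.2% and 49.2% G and C, with 5, 32, 22 and 2 CpG pairs, against a median of 6 over all windows. The window of Igfbp4 held 1 TATA box, 28 bases before the start. Igf1r had 42 CpG pairs, more than 99.1% of windows, and 2 GC boxes.

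Igfbp2, whose protein binds both IGFs and also attaches to integrins, was read by 1 probe set. Its log2 values were 6.90 and 6.99 in C3H10T1/2 and Venus, and 12.65 in Venus-Mkx. The controls were 0.10 apart, and all 3 values were above the floor. The log2 difference was 5.65 from Venus and 5.75 from C3H10T1/2, which is 50.3-fold and 53.7-fold higher. It ranked 20 from the top among 11169 measured genes by the difference from Venus.

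Igfbp3, whose protein carries most of the IGF in blood and is also made by many connective tissue cells, was below the floor in both controls. The probe set 1458268_s_at had 3.48 and 3.39 in C3H10T1/2 and Venus, and 9.42 in Venus-Mkx. The probe set 1423062_at had 2.77, 3.39 and 10.11. Both probe sets were thus above the floor in Venus-Mkx alone. The log2 difference from Venus was 6.04 and 6.72 as read. With the controls raised to the floor, 1458268_s_at showed Igfbp3 to be higher by at least 33.8-fold against each control, a log2 difference of 5.08, and 1423062_at gave a least difference of 5.76. Its rank of 12 from the top is by the values as read.

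Igfbp6, whose protein prefers IGF2 to IGF1, was read by 1 probe set. Its log2 value was 4.39 in C3H10T1/2 and in Venus, just above the floor, and 5.93 in Venus-Mkx. The log2 difference of 1.54 from each control was the smallest among the 3 members of the family called higher, and the control values lie so near the floor that its size is uncertain.

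Igfbp4, whose protein mainly inhibits IGF action and is the best known substrate of the pappalysin encoded by Pappa, was read by 6 probe sets. For 1437405_a_at the log2 values were 9.43 and 10.02 in C3H10T1/2 and Venus, and 9.32 in Venus-Mkx. Venus held the highest value, and the array labelled Venus-Mkx and C3H10T1/2 were close. The difference from Venus was −0.70 and that from C3H10T1/2 was −0.12. Of the other probe sets, 1421991_a_at held 5.53 on all 3 arrays, and the rest differed by −0.43 to −0.89 from Venus and by −0.15 to −0.34 from C3H10T1/2. The 6 probe sets share 3 target sequences in the annotation.

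Igfbp7, whose protein resembles the other members but binds IGF weakly, had log2 values of 11.85 and 12.24 in C3H10T1/2 and Venus, and 10.99 in Venus-Mkx, by 1423584_at. It was 2.37-fold lower than in Venus and 1.80-fold lower than in C3H10T1/2, with log2 differences of −1.24 and −0.85, so it was not called. A second probe set, 1423585_at, had 5.59, 5.98 and 4.18, and the last of these lies below the floor. Its differences were −1.80 and −1.41 as read, and −1.64 and −1.25 with that value raised to the floor. The third probe set, 1437804_at, held 5.57 on all 3 arrays.

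Igfbp5, whose protein binds to the extracellular matrix, gave readings that disagreed. The probe set with the highest mean, 1422313_a_at, held 6.53 on all 3 arrays, so the gene was counted as neither higher nor lower. The other, 1452114_s_at, had 3.14 and 4.30 in C3H10T1/2 and Venus, and 5.26 in Venus-Mkx, and was above the floor on the last array alone. Its differences were 0.97 from Venus and 2.12 from C3H10T1/2 as read, and 0.92 from each with the controls raised to the floor. A 2-fold difference is therefore not shown for Igfbp5.

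**Figure D2:**
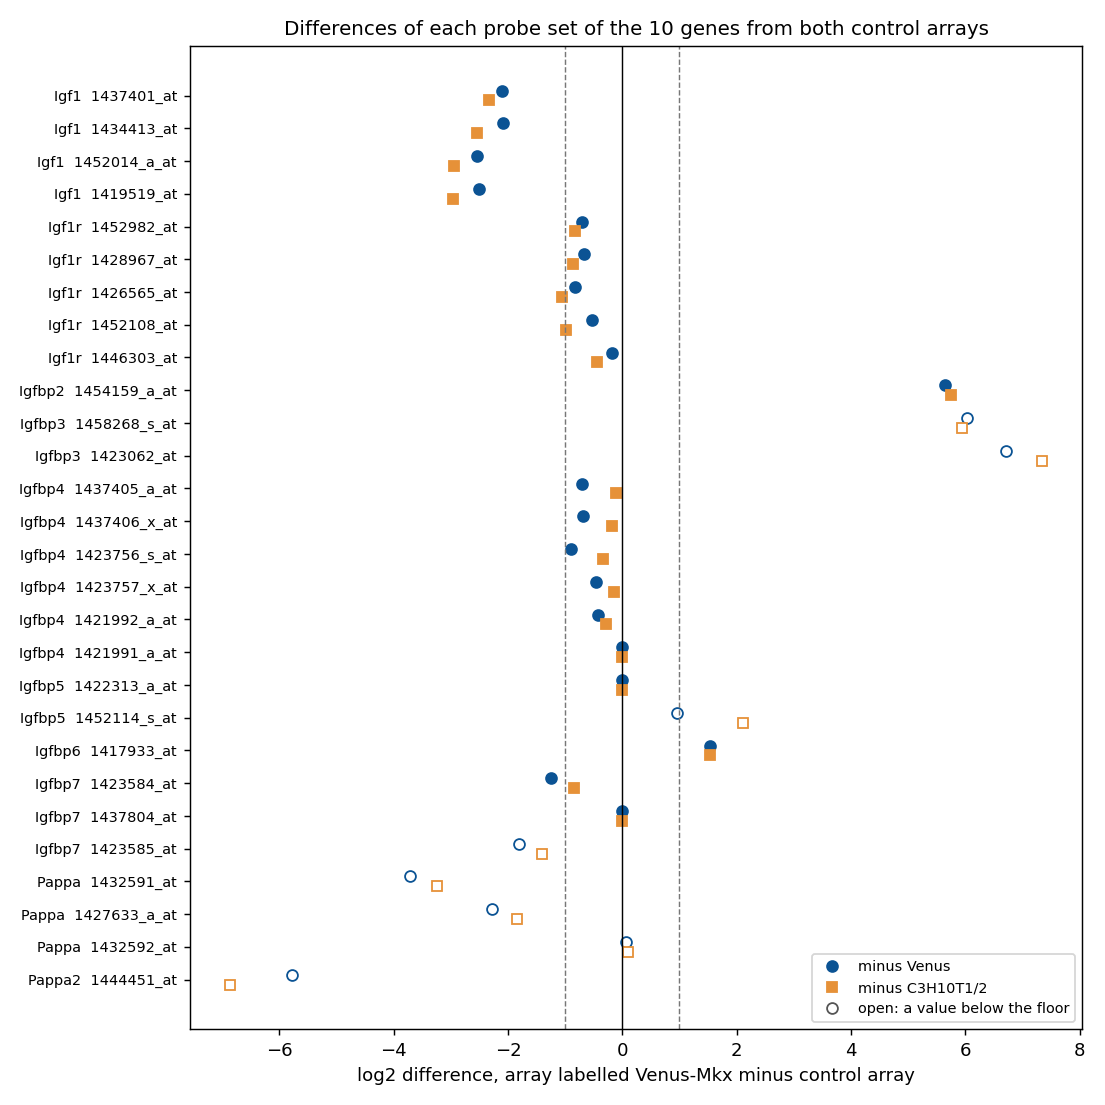
Values of the 28 probe sets on the array labelled Venus-Mkx, as log2 differences from Venus (circles) and from C3H10T1/2 (squares), with 1 array per condition. Open symbols have a value below the floor of 4.34 on either side, and dashed lines mark 2-fold. The probe sets of Igfbp2 and Igfbp3 lie above 5 on the log2 scale, that of Pappa2 lies below −5, and the probe sets of Igf1 lie between −2.09 and −2.96.

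Both pappalysin genes were called lower. Pappa2, whose protein cuts the binding proteins encoded by Igfbp3 and Igfbp5, was read by 1 probe set, at 10.47 and 9.39 in C3H10T1/2 and Venus, and 3.61 in Venus-Mkx. The array labelled Venus-Mkx was below the floor, and the controls differed from each other as well. Pappa2 was at least 33.1-fold lower than in Venus and at least 70.1-fold lower than in C3H10T1/2, with log2 differences of −5.78 and −6.86 as read. By the difference from Venus as read it ranked 4 from the bottom among 11169 measured genes.

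Pappa, whose protein cuts those encoded by Igfbp4 and Igfbp5, had log2 values of 6.13 and 6.59 in C3H10T1/2 and Venus, and 2.89 in Venus-Mkx, by 1432591_at. The array labelled Venus-Mkx was again below the floor. Pappa was at least 4.77-fold lower than in Venus and at least 3.45-fold lower than in C3H10T1/2, with log2 differences of −3.71 and −3.24 as read. A second probe set, 1427633_a_at, had 4.99, 5.42 and 3.14, and its least differences were −1.08 and −0.64, so 2-fold was shown by it against Venus only. The third, 1432592_at, was below the floor on all 3 arrays, at 2.00, 2.03 and 2.09, and carried no reading, although it shares its target sequence with 1432591_at.

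**Figure D3:**
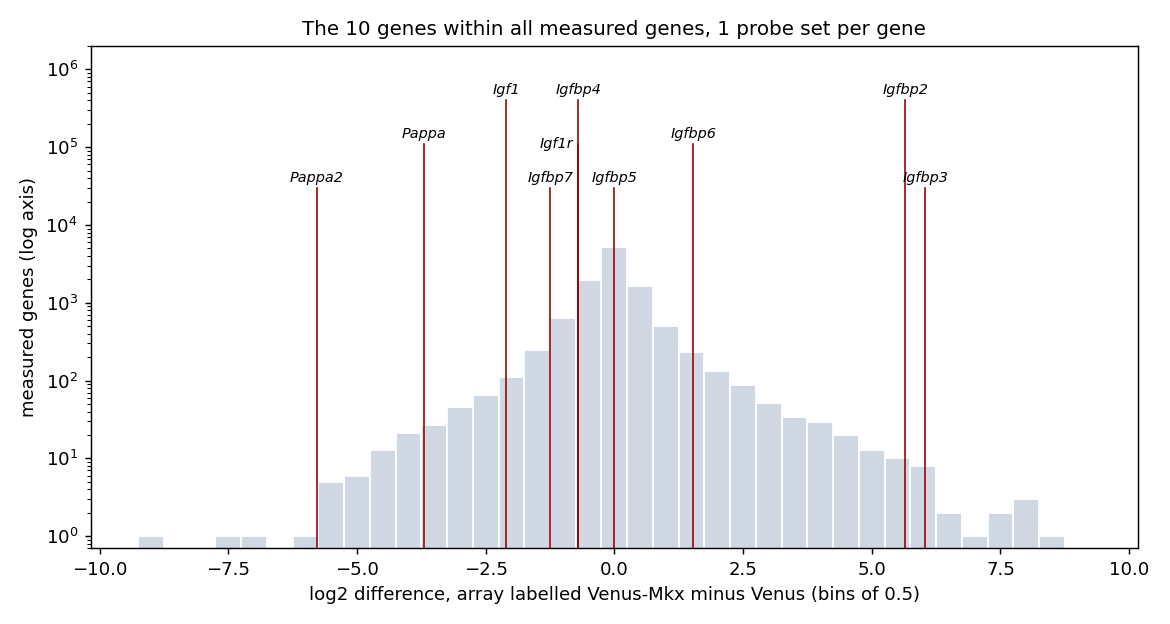
Number of measured genes (log axis) by log2 difference of the array labelled Venus-Mkx from Venus, in bins of 0.5, with red lines at the 10 genes, 1 probe set per gene and 1 array per condition. Pappa2 at −5.78, Igfbp2 at 5.65 and Igfbp3 at 6.04 stand in sparsely filled bins. Igfbp5 at 0, Igf1r at −0.71 and Igfbp4 at −0.70 stand in bins that hold many genes.

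Between the control arrays most of the 10 genes differed by less than 2-fold, by the probe set of highest mean. In Venus, none of the 10 genes was called at least 2-fold higher than in C3H10T1/2, against 1.49% of measured genes, and 1 was called lower, against 0.555%. The lower gene was Pappa2, with a log2 difference of −1.08, a 2.12-fold lower value with both readings well above the floor. The next differences were 0.58 for Igfbp4, 0.47 for Pappa and 0.39 for Igfbp7, all higher in Venus. Among the probe sets of lower mean, 1452114_s_at of Igfbp5 differed by 1.15 and 1423062_at of Igfbp3 by 0.62. Both were higher in Venus, with both control values below the floor. Over all measured genes the SD of the log2 differences was 0.34 between the controls and 0.94 between Venus-Mkx and Venus. The comparisons share arrays, and with 1 array each effects of the vector and of the single culture cannot be told apart.

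Other genes of the pathway were placed in 9 lists by their known roles, with earlier results of these arrays known. Of 73 genes listed, 69 had a probe set named here and 55 reached the floor. Of these 55, 8 were called higher, 10 lower and 37 neither, and their median log2 difference from Venus was 0.14. Over all measured genes 6.82% were called higher and 5.34% lower, with a median of 0. The lists were drawn up with earlier results known, so neither this count nor those of the single lists below are read as results about a list.

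Among the ligands, Igf2, the gene of the second IGF, was the only measured gene called, and it was higher. Its log2 values were 6.38 and 6.16 in C3H10T1/2 and Venus, and 12.70 in Venus-Mkx, a difference of 6.54 from Venus, against −2.10 for Igf1. Its second probe set had 2.92, 2.72 and 5.04, with both controls below the floor. The insulin gene Ins2 held 4.95 on all 3 arrays. Igf2r, whose protein takes up IGF2 and delivers it to lysosomes, was lower, with 9.82, 9.77 and 7.97, and both its probe sets gave differences between −1.78 and −1.91. The array labelled Venus-Mkx thus had more Igf2 signal and less Igf1 and Igf2r signal than both controls.

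Of 8 measured receptors and adaptors outside the 10 genes, 3 were lower and 1 was higher, where 5.34% and 6.82% of all measured genes were called. Irs1, which encodes the main adaptor of the IGF1 receptor, lay at −1.06 from Venus and −1.39 from C3H10T1/2. Grb10 and Grb14 encode related adaptors that restrain insulin and IGF1 receptors. By the probe set of highest mean Grb10 differed from Venus by −1.40, whereas Grb14 differed by 3.14, so these relatives went opposite ways. A second probe set of Grb10 differed by −0.93 from Venus and −1.62 from C3H10T1/2. The third held 3.76 on all 3 arrays, below the floor, and the other probe set of Grb14 was below the floor on all 3. Grb2, Insr and Shc1 were neither, at −0.03, 0.68 and 0.34 from Venus.

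Stc1, which encodes a stanniocalcin that inhibits pappalysins, was called higher, with 3.58, 4.02 and 6.45. Both controls were below the floor, and the least difference shown was 2.11. Its other probe set held 2.03 on all 3 arrays. Stc2 was neither, at 4.15, 4.15 and 4.71. On the array labelled Venus-Mkx the genes of both pappalysins were therefore lower and the gene of 1 of their inhibitors was higher.

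Of 8 measured genes of other proteases reported to cut IGF-binding proteins, 2 were higher and 1 was lower. Of all measured genes 6.82% were called higher and 5.34% lower. Htra1, which encodes a secreted serine protease with an IGFBP domain of its own, differed from Venus by 2.81 and by 2.85 with its 2 probe sets. Plat, the gene of tissue plasminogen activator, lay at 1.12 from Venus and 2.26 from C3H10T1/2, and was already higher in Venus than in C3H10T1/2 by 1.14. A second probe set of Plat held 3.56 throughout. Adamts1 was lower, with 11.34, 11.73 and 8.61. Mmp2, Mmp14 and Ctsd were neither, at 0.33, 0.98 and 0.31 from Venus.

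Among 9 measured genes of other secreted proteins with an IGFBP domain, 2 were higher and 4 were lower, with a median of −1.25, where 6.82% and 5.34% of all measured genes were called. The higher genes were Htra3, a relative of Htra1, at 2.63 from Venus, and Kazald1 at 2.41. The lower genes were Ccn1, Ccn2 and Ccn3, which encode matricellular proteins, at −1.65, −2.79 and −2.00, and Crim1 at −1.25. The other probe sets of Ccn1 were also at least 2-fold below both controls. The second probe set of Ccn3 differed by −1.61 from Venus and −0.84 from C3H10T1/2. That of Crim1 differed by −0.54 and −0.43, so neither of these second probe sets was 2-fold below both controls. Esm1, which encodes a secreted proteoglycan, was neither: it had 4.24 in C3H10T1/2, below the floor, 7.19 in Venus and 5.18 on the array labelled Venus-Mkx, between them. Ccn4 and Ccn5 were neither, at 0.65 and −0.45 from Venus.

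Downstream of the receptor, none of 16 measured genes of PI3K, AKT, mTOR and FOXO was called. Of all measured genes 6.82% were called higher and 5.34% lower, shares that give few calls in a list of this size. Their differences from Venus ran from −0.71 for Pik3cb to 0.92 for Foxo4, and the median was 0.15. The genes Pik3r1, Gsk3b and Pdpk1, named by the rule on mean values, were at 0.18, 0.16 and 0 from Venus. Of 8 measured genes known to be induced by FOXO factors, which IGF signalling holds back, Fbxo32 was higher at 2.78 from Venus, Pdk4 and Cited2 were lower at −3.69 and −1.53, and 5 were neither. Pdk4 and Fbxo32 were also higher in Venus than in C3H10T1/2, by 1.13 and 1.01, but a second probe set of Fbxo32 had 5.90 and 5.88 in C3H10T1/2 and Venus. Sesn3, Txnip and Ccng2 were neither, at 0.76, 0.50 and 1.37 from Venus. The genes of the IGF2 mRNA-binding proteins, Igf2bp1 and Igf2bp3, were neither, at −0.32 and 0.09. Transcript levels do not measure the activity of these proteins.

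**Figure D4:**
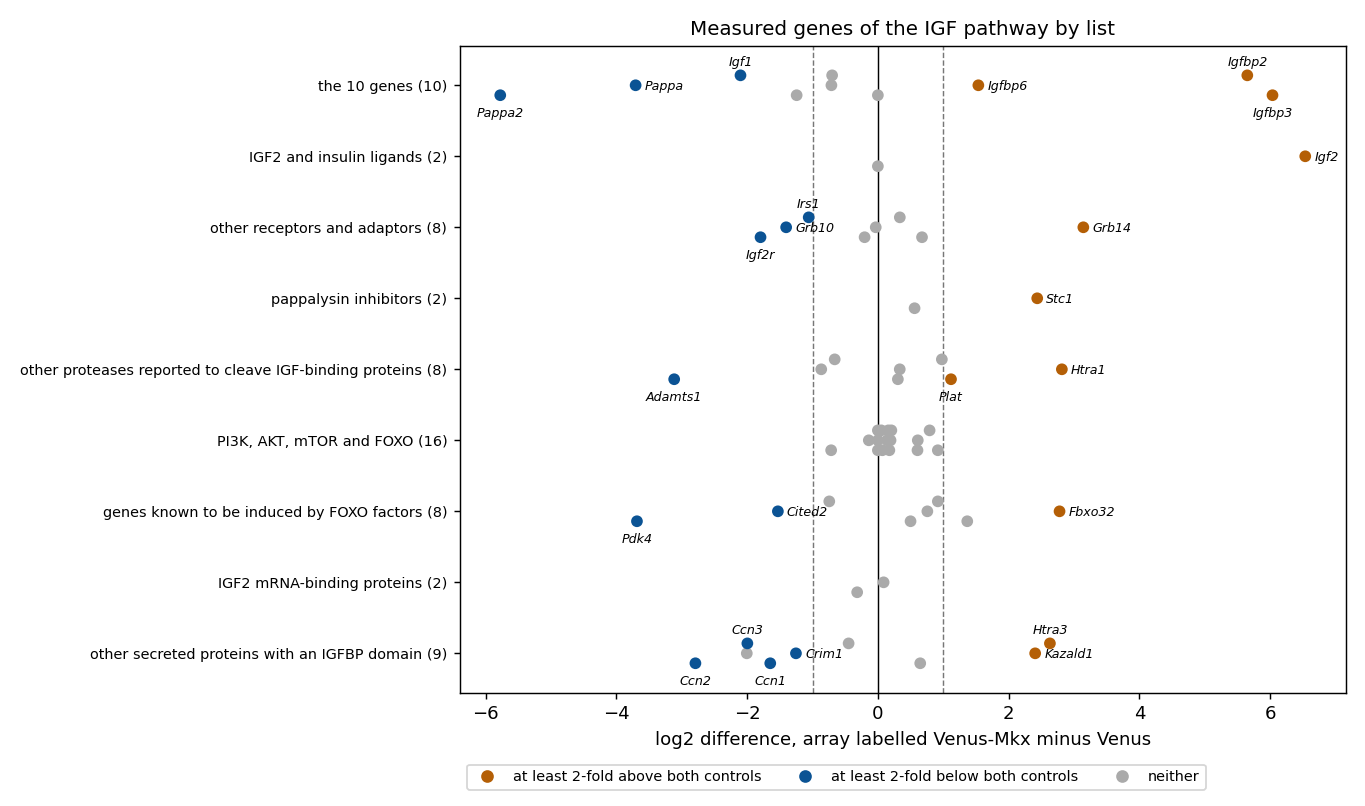
Log2 difference from Venus, on the array labelled Venus-Mkx, for the measured members of each list, with the number of genes in brackets, 1 array per condition. Orange points were at least 2-fold above both controls, blue points at least 2-fold below both, grey points neither, and dashed lines mark 2-fold. Igf2 lies at 6.54, close to Igfbp3 at 6.04 and Igfbp2 at 5.65, and no gene of the PI3K, AKT, mTOR and FOXO list is coloured.

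Markers of other cell types also differed between the arrays. Of the macrophage markers, a cell type known to make IGF1, Csf1r and Lyz2 were called higher, at 1.23 and 2.16 from Venus. Cd14 was neither, with 6.62, 6.99 and 6.49, and Adgre1, Cd68 and Ptprc were below the floor on all 3 arrays. The summed log2 values of the 6 macrophage markers were 24.2, 26.3 and 28.9 in C3H10T1/2, Venus and Venus-Mkx. Of the adipocyte markers, Fabp4 was lower, Lpl was higher, and Adipoq was below the floor throughout, with sums of 16.5, 16.5 and 15.6 over 3 genes. Of the skeletal muscle markers, Myog and Acta1 were lower and Myod1 and Ckm were neither, with sums over 4 genes of 21.1, 22.3 and 17.6. Of 5 endothelial markers Tek reached the floor and was called higher, and of 4 epithelial markers Epcam reached it and was not called, with sums of 16.0, 15.3 and 17.4 and of 16.7, 17.5 and 17.0. The part of these markers in the values of the 10 genes was not tested.

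The measured genes outside the family whose 3 values were most like those of Igfbp3 and Pappa2 were found by the Euclidean distance of log2 values, each taken from its own mean over the 3 arrays. For Igfbp3, whose signed difference from Venus was the highest of the 10 genes, these were Tnxb, which encodes tenascin-X, at a distance of 0.084, Cfb, which encodes a complement factor, at 0.24, and Chil1, which encodes a chitinase-like protein, at 0.25. All 3 were below the floor in both controls, like Igfbp3, so the likeness of their sizes is not exact. For Pappa2, whose signed difference from Venus was the most negative of the 10 genes, these were Sorbs2, Scara5 and Ptx3, which encodes a pentraxin, at distances of 0.71, 0.76 and 0.78. Over 3 arrays many genes share such a pattern.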

How the data were processed

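The authors deposited log2 probe set values of 3 Affymetrix arrays, whose sorted values nearly coincide between arrays. The study's methods name MAS 5.0 for the summary, and the submitters' processing notes name RMA, with no version. The values were used as deposited. Of 45101 probe sets, 64 controls were left out. Symbols came from the platform annotation, updated through gene IDs to GRCm38.p6, and 34945 probe sets had 1 symbol, 932 several and 9160 none. A gene was measured if its highest value reached 4.34, and 11169 of 18193 genes were. With 1 array per condition no p-value was computed. Precision is limited by the number of arrays and, at low values, by background. The counting rule was run on simulated arrays with changes of known size, without a floor or equal values. That run checks the code and gives no error rate for these arrays. The members and lists were chosen with earlier results of these data known.

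The genes named were Mkx, Igf2, all members, all pathway genes called or apart between the controls, up to 3 others per list with the highest means, and the 3 genes nearest in pattern to the members with the highest and the lowest signed difference. Pik3cb, Foxo4 and the neighbouring genes were named after their values were seen. Alternatives changed the floor, the probe set per gene, the scale, the control array and the fold threshold. Promoter windows came from a RefSeq table with 32851 windows, in which 9 of the 10 members had one. Python 3.11.15, NumPy 2.4.6, pandas 2.3.3 and matplotlib 3.10.9 were used.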

Additional observations from a re-analysis of the deposited data

How the results depend on the processing

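Igfbp2, Igfbp3 and Igf1, with Pappa2, were called in the same direction under every alternative run. Igfbp6 and Pappa were called in all but these: with the floor at the 75th percentile neither was measured, and at 3-fold Igfbp6 was not called. Igfbp7 was added to the lower genes against Venus alone and against the mean of the controls. At 1.5-fold 5 of the 10 genes were lower, with Igf1r and Igfbp7 added, and 3 were higher. Centring or quantile normalization of the arrays changed no call of the 10 genes. The medians as deposited were already 4.34, 4.34 and 4.39 in C3H10T1/2, Venus and Venus-Mkx, and the sorted values nearly coincide. Both settings could therefore change little, and nothing is read from their outcome. Their median difference ran from −0.75 to −0.47. Of 100 values of single members under the alternatives, 88 moved by less than 0.34, the SD between the controls, 12 moved further and 0 changed sign. Many of these values could not move. Another floor level, or none, changes only which genes count as measured. A gene with 1 probe set keeps its value under each choice of probe set. Centring and quantile normalization could shift a value only slightly, because the arrays were already alike in scale. Igfbp5, at 0 in the main setting, could not be counted as changing sign. The tally therefore says little about stability. Of 55 measured pathway genes outside the family, 17 were higher and 12 lower at 1.5-fold, and 7 were higher and 4 lower at 3-fold. Over all 11169 measured genes, 1339 were higher and 1299 lower at 1.5-fold, and 419 and 279 at 3-fold. With the floor at the 75th percentile fewer genes were measured, and 496 of 7593 were higher, against 762 of 11169 in the main setting. Between Venus and C3H10T1/2, 494 genes were higher and 182 lower at 1.5-fold, and 56 and 14 at 3-fold, where 0 of the 10 genes was lower. With the floor at the 75th percentile 38 of 7593 genes were lower, against 62 of 11169 in the main setting. Without probe sets equal on all arrays, a choice made after seeing the data as was raising low values to the floor, Igfbp5 was read by 1452114_s_at: it differed by 0.97 from Venus, and 1 of the 10 genes was higher in Venus than in C3H10T1/2. No paired analysis was possible because each condition has 1 array.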

Other observations

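No nearest neighbour in the annotation, among those with a probe set, was called in the same direction as a called gene of the 10. Of all measured genes 6.82% were called higher and 5.34% lower, shares that give few calls among so few neighbours. Pmch, Igfbp1, Astn1 and Astn2 were below the floor and could not be called. Nothing is therefore read from the absence of such calls. Igfbp2 and Igfbp5 are neighbours on chromosome 1, and Igfbp3 lies beside Igfbp1 on chromosome 11. Igfbp1 held 2.40 on all 3 arrays, below the floor, while Igfbp3 was far higher on the array labelled Venus-Mkx. On the other side of Igfbp2, the ribosomal protein gene Rpl37a had 13.61, 13.61 and 13.73. Beside Pappa lies Tnc, which encodes tenascin-C, with 9.50 and 8.76 in C3H10T1/2 and Venus, and 10.43 in Venus-Mkx, so the neighbours Pappa and Tnc lay on opposite sides of both controls. Beside Igfbp7 lies Adgrl3, an adhesion receptor gene, which was called higher, with 7.30, 6.68 and 8.33. The genes Igfbp1, Igfbpl1 and Igfals, whose products also bind IGF or its complexes, were below the floor on all 3 arrays, at 2.40 to 3.54.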
